A study of Homo sapiens with 12 samples.

Results

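The ELOVL genes encode the elongases of very-long-chain fatty acids, and their mRNA was followed in LNCaP cells, an established androgen-sensitive line of luminal prostate cancer cells derived from a lymph node metastasis. Members were taken by name, ELOVL1 to ELOVL7, which gave 7 of the 36137 genes in the count table. The family was picked with the responses of ELOVL6 to PXN siRNA and of ELOVL7 to androgen already known. Those 2 responses are therefore given as descriptions, with no p. Counts of called members and medians over the members are not independent evidence. Cells carried PXN siRNA or a non-specific siRNA for 48 h, and all were then serum-starved for 12 h. PXN encodes paxillin, an adaptor protein of focal adhesions. The last 24 h were spent in 2.5 nM dihydrotestosterone (DHT, the most active natural androgen) or its ethanol vehicle. The 4 groups of 3 libraries each are PXN siRNA with DHT, PXN siRNA with vehicle, non-specific siRNA with DHT, and non-specific siRNA with vehicle. All come from this 1 line and share transfection and serum starvation. Whether replicates were separate cultures is not stated in the labels, and p-values therefore reflect the spread of these samples alone, which may be technical.

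Elongation of fatty acids takes place at the endoplasmic reticulum as a cycle in which malonyl-CoA adds carbons to an acyl-CoA. An ELOVL protein catalyses the first, condensing step, and a ketoacyl-CoA reductase, a dehydratase and an enoyl-CoA reductase complete each round. The members differ in the chains they accept: ELOVL1, ELOVL3, ELOVL6 and ELOVL7 act on saturated and monounsaturated chains, ELOVL2 and ELOVL5 mainly on polyunsaturated chains, and ELOVL4 makes the longest chains, as in retina and skin. ELOVL6 lengthens palmitate to stearate and is a target of the lipogenic factor SREBP-1 in mouse liver.

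The libraries held 34321000 to 38633456 counts, and 18468 genes had enough counts to be tested. CPM values are counts scaled to the TMM library size, and 1 CPM stands for 33.65 to 38.2 counts. PXN itself had 16.6 to 19.96 CPM (PXN siRNA, DHT) against 99.7 to 113 CPM (non-specific siRNA, DHT), and 14.9 to 21.2 CPM (PXN siRNA, vehicle) against 106 to 112 CPM (non-specific siRNA, vehicle), which matched the siRNA labels in all 12 libraries. All 10 luminal prostate markers were present, with a summed level of 3411 to 3966 CPM in PXN siRNA cells with DHT against 6996 to 7456 CPM in non-specific siRNA cells with DHT, and 2797 to 3251 CPM against 4332 to 4902 CPM under vehicle. With PXN siRNA, 7 of the 10 were called lower and 3 were not called under DHT, where 26.7% of all genes were lower. KLK3 stood at 584 against 2235 CPM under DHT, but KRT8 at 502 against 499 CPM and EPCAM at 124 against 121 CPM. Of 12 markers of basal, stromal, endothelial and immune cells found in the table, 8 lay under 1 CPM, among them KRT5, TP63, DCN, PECAM1, PTPRC and CD68. The others were the stromal COL1A1 (26.5 CPM on average over the 12 libraries), VIM (17.9) and COL3A1 (4.79) and the endothelial VWF (17.1). Under DHT, COL1A1 stood at 35.1 CPM with PXN siRNA against 19.9 CPM, VWF at 20.4 against 16.8 CPM and COL3A1 at 3.01 against 5.36 CPM. The sum of the 12 markers was 83.3 to 92.2 CPM in PXN siRNA cells with DHT against 42.2 to 54.8 CPM in non-specific siRNA cells with DHT, and 76.4 to 92.6 CPM against 42.3 to 50.7 CPM under vehicle. VIM, which encodes the intermediate filament vimentin, was the marker that moved most, at 30.2 ± 7.10 CPM against 4.81 ± 1.66 CPM under DHT (SD, n = 3 each). Mitochondrially encoded genes took 8.13 to 8.95% of counts in PXN siRNA libraries against 4.69 to 7.55% in non-specific siRNA libraries. The part of these marker and mitochondrial shifts in any ELOVL difference was not tested.

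The promoters of the 4 abundant members are shown first, because these members carry the results and their promoters differ in composition. The sequences are those of RefSeq on GRCh38.p14, read 5′ to 3′ on the gene's own minus strand. Each is limited to bases of the window from 250 before to 50 after the RefSeq start that lie outside annotated exons, or to 30 bases around the E-box in ELOVL5. Capitals mark the GC box GGGCGG, read as CCGCCC on the other strand, and the E-box CACGTG.
ELOVL1, chr1:43368075-43368261: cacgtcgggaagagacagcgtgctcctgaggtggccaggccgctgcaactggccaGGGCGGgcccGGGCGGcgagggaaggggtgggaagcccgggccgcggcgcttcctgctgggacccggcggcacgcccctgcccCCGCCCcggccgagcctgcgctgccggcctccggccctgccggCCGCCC
ELOVL6, chr4:110198677-110198841: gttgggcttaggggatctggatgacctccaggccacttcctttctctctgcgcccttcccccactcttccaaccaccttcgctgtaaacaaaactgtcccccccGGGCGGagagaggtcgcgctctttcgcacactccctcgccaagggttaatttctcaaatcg
ELOVL7, chr5:60844390-60844519: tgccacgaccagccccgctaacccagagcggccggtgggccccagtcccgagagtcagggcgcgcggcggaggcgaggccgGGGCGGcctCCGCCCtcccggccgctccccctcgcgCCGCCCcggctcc
ELOVL5, chr6:53349144-53349173: atttcccagagaCACGTGgaaccgaggggc
The ELOVL1 and ELOVL7 stretches lie just upstream of the annotated gene, and the ELOVL6 stretch lies inside the gene body of GENCODE 29, between annotated exons. All 7 members matched a RefSeq promoter. G and C made up 80.7% of the whole ELOVL7 window and 77.3% of the ELOVL1 window, more than in 98.1% and 94.6% of all 27305 promoters, but 57.3% in both ELOVL5 and ELOVL6. The GC box occurred on either strand in 6 members, all but ELOVL5, and in 43.4% of all promoters. The E-box occurred in ELOVL4 and ELOVL5 and in 7.19% of all promoters, and the CCAAT box, CCAAT on either strand, in 4 members and 35.4% of all. In ELOVL1 the CCAAT box overlaps the last GC box shown. ELOVL5 alone held the cAMP response element TGACGTCA, found in 1.92% of promoters. The sterol element TCACNCCAC (1.16% of promoters) was not found on either strand of any member's window, which says only that these letters are not within it.

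The levels that carry the comparisons were those of 4 members, and 3 others were near the limit of detection. ELOVL5, the polyunsaturated chain elongase (ENSG00000012660.13, chromosome 6, 53267398 to 53349179), was the most abundant. Scaled to exon length, it stood at 134 ± 24.4 CPM per kb in PXN siRNA cells with DHT, 79.7 ± 12.9 in PXN siRNA cells with vehicle, 269.6 ± 22.4 in non-specific siRNA cells with DHT and 111 ± 13.2 in non-specific siRNA cells with vehicle (SD, n = 3 each). ELOVL1 (ENSG00000066322.14, chromosome 1, 43363397 to 43368074), which lengthens saturated chains to those used in sphingolipids, followed at 49.4 ± 1.24, 48.8 ± 2.46, 71.0 ± 0.898 and 57.0 ± 2.93 CPM per kb in the same order of groups. Its levels are 76.3 ± 1.92, 75.2 ± 3.79, 109 ± 1.39 and 87.9 ± 4.53 CPM per kb when divided by the longest transcript in place of all exons. ELOVL6 (ENSG00000170522.9, chromosome 4, 110045846 to 110199199) and ELOVL7 (ENSG00000164181.13, chromosome 5, 60751791 to 60844389) were lower by this measure. ELOVL6 had 5.92 ± 0.642, 5.35 ± 1.29, 25.6 ± 1.58 and 24.3 ± 1.14 CPM per kb, and ELOVL7 had 7.06 ± 0.739, 2.47 ± 0.644, 26.8 ± 5.82 and 6.02 ± 0.864 CPM per kb, again in that order.

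The makeup of the family differed between groups. The summed level of the 7 members was 196 ± 26.6 CPM per kb in PXN siRNA cells with DHT, 136 ± 17.1 in PXN siRNA cells with vehicle, 393 ± 27.0 in non-specific siRNA cells with DHT and 199 ± 15.9 in non-specific siRNA cells with vehicle (SD, n = 3 each). PXN siRNA cells with DHT and non-specific siRNA cells with vehicle overlapped in this sum. They did so with unlike contributions: ELOVL6 made up 3.03 ± 0.247% of the sum in PXN siRNA cells with DHT against 12.3 ± 1.39% in non-specific siRNA cells with vehicle, and ELOVL5 67.8 ± 3.23% against 55.9 ± 2.25%. ELOVL1 held its largest share, 36.0 ± 2.58%, in PXN siRNA cells with vehicle, and its smallest, 18.1 ± 1.09%, in non-specific siRNA cells with DHT.

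**Figure D1:**
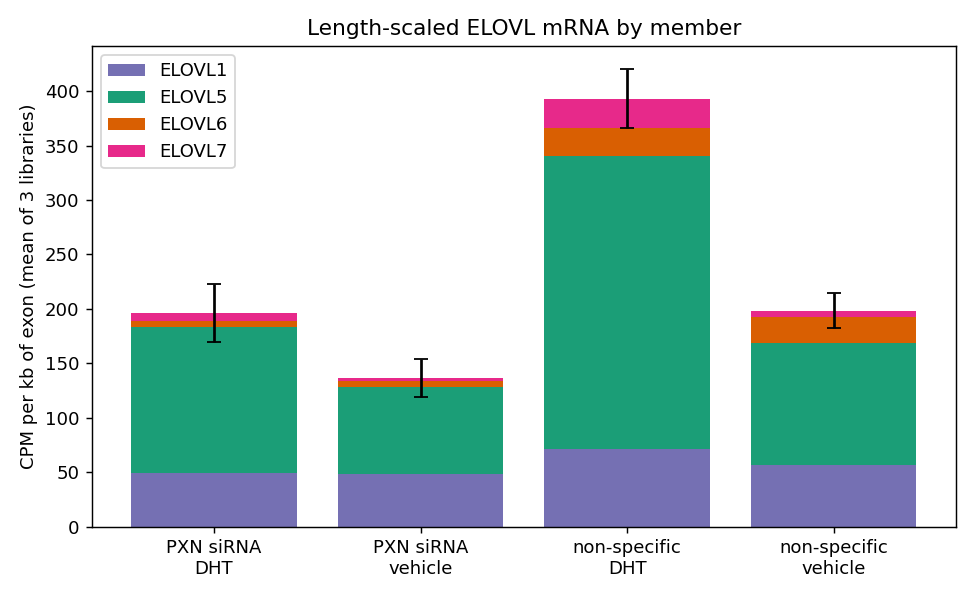
Stacked bars give the mean level of ELOVL1, ELOVL5, ELOVL6 and ELOVL7 in CPM per kb of exon for each group of 3 libraries, and the error bar is the SD of the family sum. The bar of non-specific siRNA cells with DHT reaches 393, about level bars stand at 196 for PXN siRNA with DHT and 199 for non-specific siRNA with vehicle, and the ELOVL6 segment is thin in both PXN siRNA groups.

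The 3 scarce members were ELOVL2, ELOVL3 and ELOVL4. ELOVL2 (ENSG00000197977.3, chromosome 6, 10980759 to 11044314), a polyunsaturated chain elongase best known in liver and retina, held 288 counts in all. They were 12, 22 and 32 in PXN siRNA libraries with DHT, 8, 20 and 11 in PXN siRNA libraries with vehicle, 36, 48 and 52 in non-specific siRNA libraries with DHT, and 11, 13 and 23 in non-specific siRNA libraries with vehicle. Each library of non-specific siRNA with DHT was thus above the other 9. ELOVL4 (ENSG00000118402.5, chromosome 6, 79914812 to 79947580) held 95 counts, at most 17 in a library, with overlap between neighbouring groups in the order of means. ELOVL3 (ENSG00000119915.4, chromosome 10, 102226328 to 102229589), known from brown fat and skin in mouse, had 4 counts in 12 libraries and at most 1 in any. It did not pass the low-count filter and was not tested, so 6 of the 7 members enter the tests. A count of 0 allows up to 3 counts, so a difference in ELOVL3 was not detectable at this depth.

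**Figure D2:**
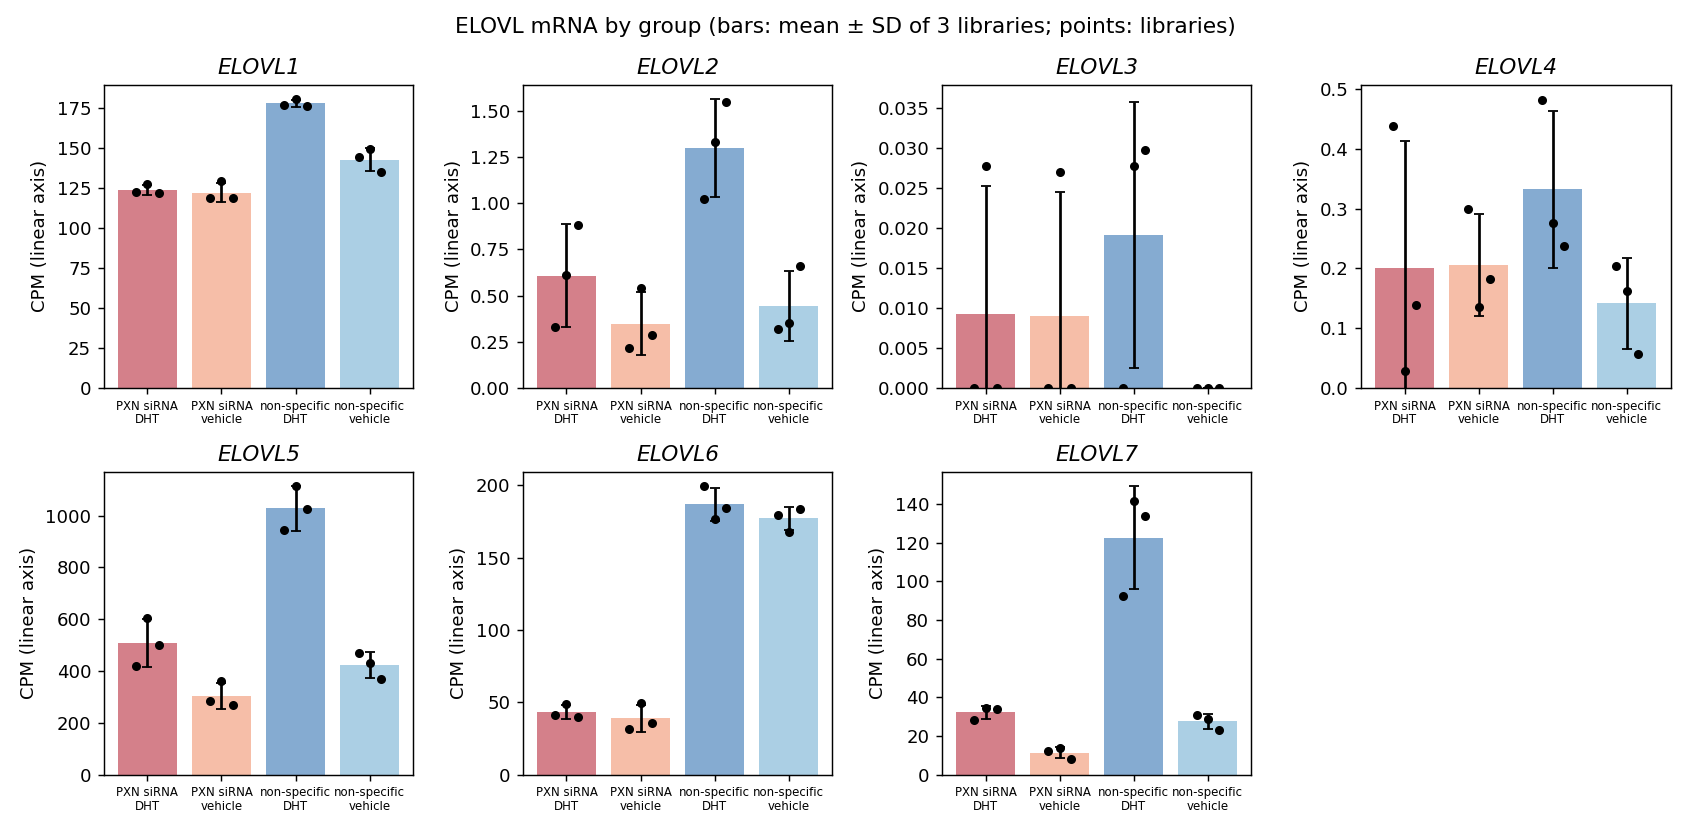
Each panel gives 1 member in CPM on its own linear axis from 0, with bars for the mean ± SD of 3 libraries and points for libraries, PXN siRNA groups in red tones and non-specific siRNA groups in blue tones. ELOVL6 separates by siRNA alone, ELOVL5 and ELOVL7 by siRNA and by treatment, and ELOVL2, ELOVL3 and ELOVL4 lie near 0.

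The first comparison asks which elongase transcripts change when paxillin is lowered and no androgen is added. With vehicle, ELOVL6 mRNA was 4.54-fold lower in PXN siRNA cells and ELOVL7 mRNA 2.44-fold lower, while ELOVL5 and ELOVL1 were lower by smaller amounts. ELOVL6 had 31.5, 49.6 and 36.0 CPM in PXN siRNA libraries against 179.6, 168 and 184 CPM in non-specific siRNA libraries. The groups lie far apart, although replicate 2 of PXN siRNA is above its companions. The log2 fold change was -2.18 ± 0.13 (SE). ELOVL7, a saturated chain elongase studied in prostate cancer, had 12.2, 13.7 and 8.0 CPM against 30.7, 28.8 and 23.1 CPM. Its 6 libraries did not overlap, and the log2 fold change was -1.29 ± 0.19 (SE; edgeR's quasi-likelihood F test, two-sided, Benjamini-Hochberg over all tested genes, adjusted p = 6.21e-05). ELOVL5 had 284, 360.1 and 268 CPM against 471, 431 and 371 CPM, so that the highest PXN siRNA library came close to the lowest non-specific siRNA library. Its change was -0.48 ± 0.13 (edgeR adjusted p = 0.00828). ELOVL1 had 119, 129 and 119 CPM against 145, 149 and 135 CPM, a small fall without overlap of -0.22 ± 0.06 (edgeR adjusted p = 0.00467).

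Under vehicle, then, 4 of the 6 tested members were lower with PXN siRNA and none was higher. Over all genes 50.2% were called in this comparison, 26.3% lower and 23.9% higher, so a call by itself sets no member apart. The median log2 fold change was -0.41 over the 6 members and 0.02 over all genes tested. ELOVL2 (-0.35 ± 0.45, adjusted p = 0.544) and ELOVL4 (0.53 ± 0.71, adjusted p = 0.562) were not called, and ELOVL2 had a log2 fold change of 0.03 without replicate 3 of non-specific siRNA with vehicle. The call on ELOVL1 was lost with upper-quartile scaling (-0.13, adjusted p = 0.0798), which moved the median of all genes to 0.12 and the calls of all genes to 5668 higher and 3754 lower, against 4423 higher and 4853 lower with TMM. In bulk RNA, fewer cells with a transcript and less of it per cell cannot be told apart.

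Under DHT the same 4 members were lower with PXN siRNA, and ELOVL2 with them. ELOVL6 had 41.3, 48.6 and 39.8 CPM in PXN siRNA libraries against 199.6, 177 and 185 CPM in non-specific siRNA libraries. The 4.33-fold fall (-2.11 ± 0.13) was close to the one under vehicle. ELOVL7 had 28.4, 34.5 and 33.9 CPM against 92.3, 142 and 134 CPM, with replicate 1 of non-specific siRNA the lowest of its group and still well above every PXN siRNA library. That is a 3.80-fold fall (-1.93 ± 0.18). It is given as a description, because these non-specific siRNA libraries are those of the ELOVL7 rise that the family was picked with. ELOVL5 had 421, 606 and 502 CPM against 943, 1114 and 1026 CPM, a 2.02-fold fall without overlap (-1.01 ± 0.14, edgeR adjusted p = 2.48e-05). ELOVL1 had 122, 128 and 122 CPM against 177, 180.5 and 176 CPM, tight in both groups (-0.52 ± 0.06, adjusted p = 4.42e-06). ELOVL2, with 0.607 CPM on average against 1.30 CPM, fell too (-1.09 ± 0.36, adjusted p = 0.0204).

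With DHT, 5 of 6 tested members were thus lower with PXN siRNA and none was higher, where 51.8% of all genes were called, 26.7% lower and 25.0% higher. The members' median was -1.05, that of all genes 0.03. The ELOVL2 call was lost without replicate 1 of PXN siRNA with DHT (-0.82, adjusted p = 0.0797) or replicate 3 of non-specific siRNA with DHT (-0.97, adjusted p = 0.0696). ELOVL4 was not called (-0.71 ± 0.61, adjusted p = 0.352), but was lower without replicate 1 of PXN siRNA with DHT, which held 16 ELOVL4 counts against 1 and 5 in replicates 2 and 3 (-1.98, adjusted p = 0.0275).

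The next comparison asks which members respond to androgen. In cells with the non-specific siRNA, DHT raised ELOVL7 4.45-fold and ELOVL5 2.42-fold, and left ELOVL6 within the spread of its replicates. ELOVL7 had 92.3, 142 and 134 CPM with DHT against 30.7, 28.8 and 23.1 CPM with vehicle, without overlap (2.15 ± 0.18). ELOVL5 had 943, 1114 and 1026 CPM with DHT against 471, 431 and 371 CPM with vehicle. The lowest DHT library thus lay far above the highest vehicle library (1.28 ± 0.14, edgeR adjusted p = 9.36e-05). ELOVL1 rose slightly, with 177, 180.5 and 176 CPM against 145, 149 and 135 CPM (0.32 ± 0.06, adjusted p = 0.00459). ELOVL2 was scarce but also rose, with 36, 48 and 52 counts against 11, 13 and 23 counts (1.54 ± 0.38, adjusted p = 0.0295). ELOVL6, with 199.6, 177 and 185 CPM against 179.6, 168 and 184 CPM, overlapped between groups, and its difference of 0.08 had a 95% interval of -0.18 to 0.34 (adjusted p = 0.833).

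DHT thus raised 4 of the 6 tested members and lowered none in these cells, where 4.87% of all genes were called, 2.72% higher and 2.16% lower. The members' median was 1.25 and that of all genes -0.01. ELOVL4 had 17, 10 and 8 counts with DHT against 7, 6 and 2 with vehicle, without overlap, but was not called (1.22 ± 0.66, adjusted p = 0.392). The ELOVL2 call was lost without replicate 2 (adjusted p = 0.0971) or 3 (0.133) of non-specific siRNA with DHT, and without replicate 1 (0.116) or 2 (0.0883) of non-specific siRNA with vehicle. The 900 genes called in all became 1361, 423 and 416 without replicate 1, 2 or 3 of non-specific siRNA with DHT, 522 and 500 without replicate 1 or 3 of its vehicle group, and 2236 with the replicate number as a block.

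In cells with PXN siRNA, ELOVL7 and ELOVL5 were called. ELOVL7 had 28.4, 34.5 and 33.9 CPM with DHT against 12.2, 13.7 and 8.0 CPM with vehicle, a 2.86-fold rise without overlap (1.52 ± 0.19). ELOVL5 had 421, 606 and 502 CPM with DHT against 284, 360.1 and 268 CPM with vehicle, a 1.68-fold rise in which all 3 DHT libraries lay above all 3 vehicle libraries (0.75 ± 0.14, edgeR adjusted p = 0.0399). ELOVL1 stood at 124 ± 3.12 CPM with DHT and 122 ± 6.16 CPM with vehicle (SD, n = 3 each), with a 95% interval of the log2 difference of -0.10 to 0.14. ELOVL6 stood at 43.2 ± 4.68 and 39.0 ± 9.42 CPM, with an interval of -0.13 to 0.42. ELOVL2 (0.80 ± 0.43, adjusted p = 0.767) and ELOVL4 (-0.02 ± 0.66, adjusted p = 0.999) were not called.

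Here 2 of 6 members were higher and none lower, and 0.184% of all genes were called, 0.184% higher and 0% lower. The members' median was 0.45 and that of all genes -0.01. The ELOVL5 call was near the threshold in the main, unpaired fit: it was lost in a fit of only the 2 groups (adjusted p = 0.109), without replicate 2 (0.201) or 3 (0.121) of PXN siRNA with DHT, without replicate 1 (0.141) or 3 (0.183) of PXN siRNA with vehicle, and without replicate 2 of non-specific siRNA with vehicle (0.0578). With the replicate number as a block, the edgeR adjusted p of ELOVL5 was 0.000544. The 34 genes called in all became 70, 12 and 18 without replicate 1, 2 or 3 of PXN siRNA with DHT, 15, 71 and 10 without those of its vehicle group, 80 without replicate 1 of non-specific siRNA with DHT, and 346 with the replicate number as a block.

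**Figure D3:**
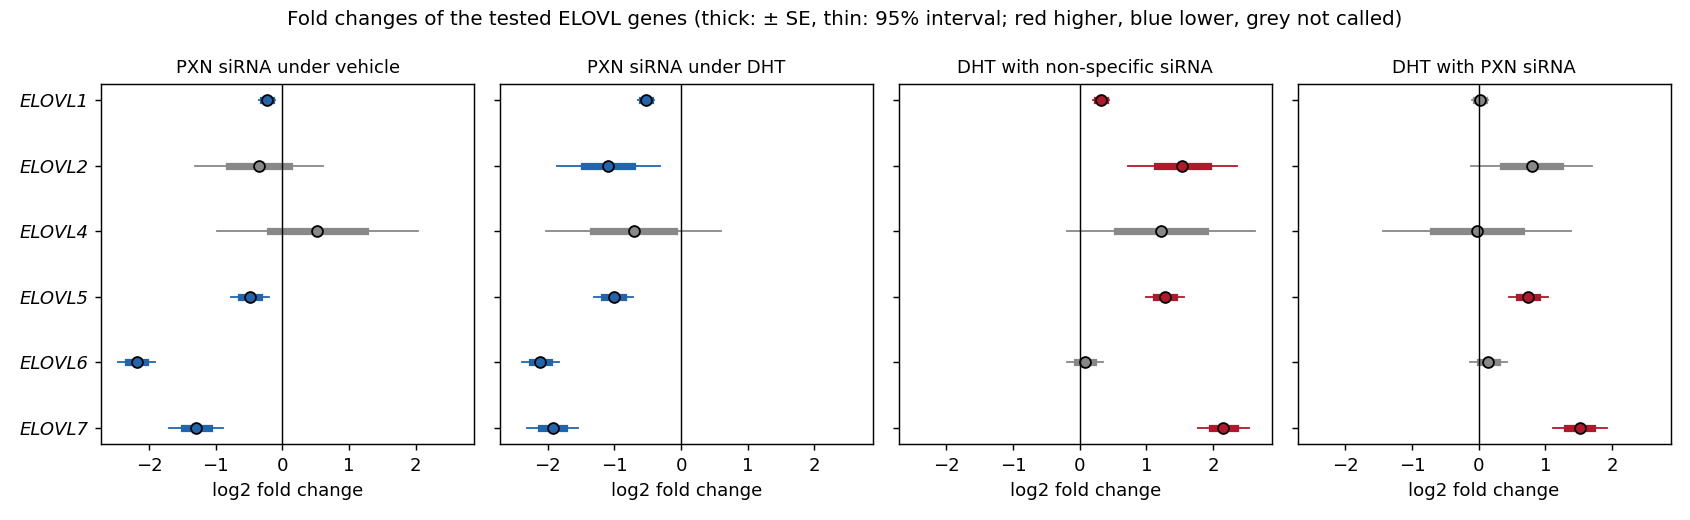
Points give the log2 fold change of the 6 tested members in each comparison, with the thick line ± SE, the thin line the 95% interval, and blue, red and grey for lower, higher and not called. ELOVL6 lies near -2 in both PXN siRNA panels and near 0 in both DHT panels, while ELOVL7 lies far from 0 in all 4.

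Levels could be ordered by group in each abundant member. ELOVL5 and ELOVL7 shared 1 order: non-specific siRNA with DHT was highest and PXN siRNA with vehicle lowest, both apart from the rest, and PXN siRNA with DHT overlapped non-specific siRNA with vehicle between them. Thus ELOVL7 with both PXN siRNA and DHT (32.3 ± 3.38 CPM) and with neither (27.6 ± 3.95 CPM) did not differ beyond the spread (SD, n = 3 each). ELOVL6 fell into 2 levels, the PXN siRNA groups (43.2 ± 4.68 and 39.0 ± 9.42 CPM with DHT and vehicle) and the non-specific siRNA groups (187 ± 11.6 and 177 ± 8.28 CPM with DHT and vehicle). ELOVL1 had 3 levels, since its PXN siRNA groups overlapped each other below the 2 non-specific siRNA groups, of which DHT was the higher.

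Whether the response to DHT itself depended on the siRNA was tested as an interaction. The fitted interaction, the log2 response to DHT with PXN siRNA minus that with non-specific siRNA, was -0.64 ± 0.26 (SE) for ELOVL7, -0.53 ± 0.19 for ELOVL5 and -0.30 ± 0.08 for ELOVL1. None passed the correction over all genes by edgeR's quasi-likelihood test (adjusted p = 0.692 for ELOVL1, and 1.00 for ELOVL5). The unadjusted edgeR p was 0.00252 for ELOVL1 and 0.0140 for ELOVL5, and 4.21% of all genes lay under an unadjusted 0.05. ELOVL6 and ELOVL7 are given no p here, because their interactions are built from the responses that the family was picked with. For ELOVL6 the interaction was 0.07 ± 0.18, and it was -0.02 or -0.06 without replicate 2 of PXN siRNA with DHT or replicate 1 of PXN siRNA with vehicle. In all, 0 genes were called for the interaction by edgeR, 778 had an unadjusted p under 0.05, and DESeq2's Wald test called 30. Without replicate 1 of non-specific siRNA with DHT edgeR called 45 genes, and 1 without replicate 1 or 2 of non-specific siRNA with vehicle. Each comparison of 1 siRNA or 1 treatment shares its libraries with 2 others, so their values are set side by side here and not correlated.

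Members were then compared with each other by the log2 ratio of their counts within each library, which does not depend on library scaling. Over both treatments, the fall of ELOVL6 with PXN siRNA was larger than that of ELOVL1 by 1.79 log2 units, of ELOVL5 by 1.41, of ELOVL2 by 1.39 and of ELOVL7 by 0.55, given here as a description because the family was picked with that fall known. The log2 ratio of ELOVL6 to ELOVL7 changed by -0.90 under vehicle and -0.21 under DHT. That of the scarce ELOVL4 to ELOVL6 changed by 1.84 over both treatments. Neither pair was called in all 12 libraries with the pseudocount of 0.5 counts. Of the pairs without ELOVL6, 3 were called for PXN siRNA (exact permutation test within treatment, two-sided, 400 arrangements, smallest possible p = 0.005, Benjamini-Hochberg adjusted over all 15 pairs of tested members). The 15 pairs include those with ELOVL6, so each adjusted p draws in part on the fall that was known. Pairs with ELOVL7 also draw on the non-specific siRNA libraries with DHT, in which its rise was known. Their p are therefore not independent support. ELOVL7 fell more than ELOVL1 by 1.23 and more than ELOVL5 by 0.85 (exact permutation p = 0.005, adjusted p = 0.0188 for both). ELOVL5 fell more than ELOVL1 by 0.38 (adjusted p = 0.025), although the call was lost without replicate 1 (0.41, adjusted p = 0.05) or 2 (0.36, adjusted p = 0.0536) of non-specific siRNA with DHT. Among pairs with a scarce member, ELOVL2 and ELOVL7 differed by 0.84 (adjusted p = 0.0536), and were called without replicate 3 of non-specific siRNA with vehicle or replicate 1 of PXN siRNA with DHT (adjusted p = 0.0429 each). ELOVL4 and ELOVL7 differed by 1.28 (adjusted p = 0.15), and were called without replicate 2 of PXN siRNA with DHT (adjusted p = 0.0281). With a pseudocount of 5 counts both of these pairs were called (adjusted p = 0.0167 each).

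The rise of ELOVL7 with DHT, over both siRNAs, was larger than that of ELOVL6 by 1.72 log2 units, of ELOVL1 by 1.67, of ELOVL5 by 0.83 and of ELOVL2 by 0.67, again as a description, since the family was picked with that rise known. Of the pairs without ELOVL7, 4 responded unequally to DHT by the same test within siRNA. ELOVL5 rose more than ELOVL6 by 0.89 and more than ELOVL1 by 0.84 (exact permutation p = 0.005, adjusted p = 0.015 for both). The log2 ratio of ELOVL2 rose over that of ELOVL6 by 1.05 (exact permutation p = 0.015, adjusted p = 0.0375). It rose over that of ELOVL1 by 1.00 (exact permutation p = 0.02, adjusted p = 0.0429), in counts as low as those given for ELOVL2 above. These 2 calls are not independent of the ELOVL7 pairs in the adjustment. Both of these calls were lost without replicate 2 or 3 of either DHT group, replicate 1 or 3 of PXN siRNA with vehicle, or replicate 1 or 2 of non-specific siRNA with vehicle (adjusted p between 0.05 and 0.0844 for the first, and between 0.0536 and 0.0964 for the second). ELOVL1 and ELOVL6 differed by 0.05 in their response to DHT, with an exact permutation p = 0.685.

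The transcripts whose pattern was most like that of each abundant member were found by the root mean square (RMS) difference of centred log2 CPM over the 12 libraries, among 11079 genes that averaged 5 CPM or more. ELOVL6, whose own RMS spread was 1.09 log2 units, was nearest to SKA3 (0.0776), HMMR (0.104) and DLGAP5 (0.122), which encode a kinetochore protein, a hyaluronan receptor that also binds the mitotic spindle, and a spindle protein. Among the nearest to ELOVL7 (own spread 1.25) were SLC45A3 (0.382), the prostate antigen prostein, and KLK3 (0.391), which encodes prostate-specific antigen. ELOVL5 (own spread 0.667) was nearest to STK39 (0.188), GNMT (0.199) and RAB3B (0.201), a stress kinase, a glycine methyltransferase and a vesicle GTPase. ELOVL1 (own spread 0.223) was nearest to VCL (0.0491), which encodes the focal adhesion protein vinculin, CNIH4 (0.0510) and SURF4 (0.0555), both of early secretory transport. These are descriptions over 12 libraries that share their groups, and carry no test.

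**Figure D4:**
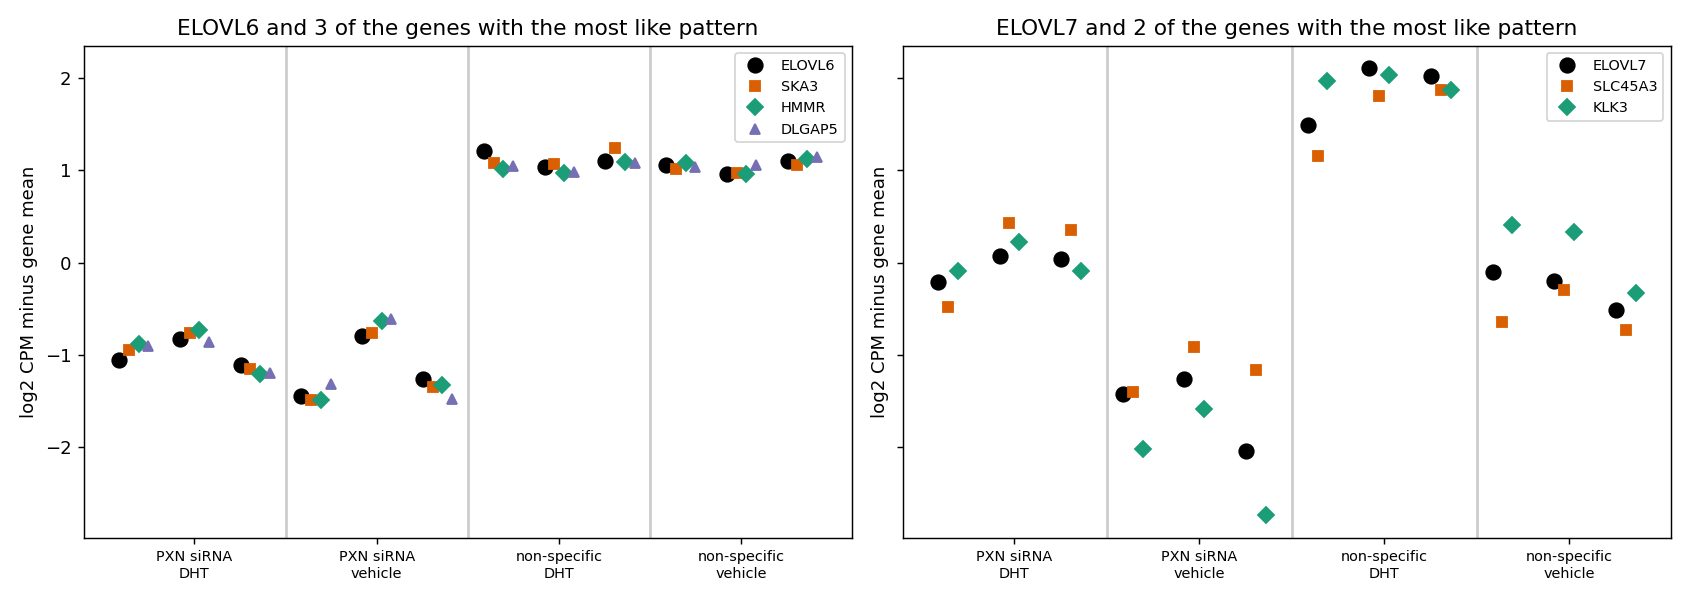
Points give log2 CPM minus the gene's mean over the 12 libraries, for ELOVL6 (left) with the 3 genes nearest to it and ELOVL7 (right) with 2 of its nearest, and libraries along the axis by group. ELOVL6 and its 3 neighbours lie within about the same 2 bands set by siRNA, while ELOVL7 and its neighbours also step with DHT and scatter more widely (RMS difference 0.382 and 0.391).

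The partner enzymes of the elongation cycle were called in part. Of 6 tested partners, 3 were lower and 1 higher with PXN siRNA under DHT (median -0.34), where 26.7% of all genes were lower and 25.0% higher, and 2 were lower and none higher under vehicle (median -0.48), where 26.3% were lower and 23.9% higher. HACD3, a 3-hydroxyacyl-CoA dehydratase, stood at 147 ± 12.7 CPM in PXN siRNA cells against 376 ± 24.8 CPM in non-specific siRNA cells under DHT (log2 fold change -1.36 ± 0.10, edgeR adjusted p = 1.96e-07), and at 151 ± 22.8 against 368 ± 25.8 CPM under vehicle (-1.29 ± 0.10, adjusted p = 2.61e-07; SD, n = 3 each). HSD17B12, the ketoacyl-CoA reductase, fell by 0.95 ± 0.11 under DHT (adjusted p = 8.19e-06) and by 0.85 ± 0.11 under vehicle (adjusted p = 2.13e-05). The dehydratase HACD2 fell under DHT (-0.49 ± 0.07, adjusted p = 3.37e-05), and the muscle-type dehydratase HACD1, at 4 to 24 counts a library, was the 1 called higher (0.97 ± 0.36, adjusted p = 0.0349). TECR, the enoyl-CoA reductase that ends the cycle, was not called in any comparison, at 115 ± 1.20 against 122 ± 10.2 CPM under DHT. Without replicate 3 of non-specific siRNA with vehicle, 4 partners were called under vehicle.

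Genes listed with fatty acid and malonyl-CoA synthesis moved mainly in the same direction with PXN siRNA. The list also holds genes of mitochondrial fatty acid synthesis and MLYCD, which breaks malonyl-CoA down. Its counts are therefore not of supply to the cycle alone. Of 12 tested genes of fatty acid and malonyl-CoA synthesis, 10 were lower under vehicle and 9 under DHT, against 26.3% and 26.7% of all genes, and none was higher (medians -0.53 and -0.62). FASN, fatty acid synthase, had 1509 ± 301 CPM in PXN siRNA cells against 3932 ± 721 CPM in non-specific siRNA cells under DHT, and 1172 ± 205 against 3021 ± 415 CPM under vehicle (log2 fold changes -1.38 ± 0.17 and -1.37 ± 0.17). ACLY, which makes cytosolic acetyl-CoA, fell by 0.93 ± 0.09 and 0.74 ± 0.09 in those comparisons. Of the 5 tested desaturases, 3 were lower and 2 higher under each treatment, against 23.9% (vehicle) and 25.0% (DHT) of all genes higher. SCD, the stearoyl-CoA desaturase that acts on the products of ELOVL6, had 1129.6 ± 98.5 CPM against 3129.9 ± 238 CPM under DHT and 1130.5 ± 216 against 3044 ± 110 CPM under vehicle (-1.47 ± 0.12 and -1.43 ± 0.12), and FADS2 and FADS1 of polyunsaturated synthesis were the others that fell. SCD5 (0.77 ± 0.15 and 0.73 ± 0.15) and FADS3 (0.52 ± 0.09 and 0.63 ± 0.09) were higher under DHT and vehicle.

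Among 11 regulators of lipid synthesis, 8 were lower with PXN siRNA under DHT and 7 under vehicle, against 26.7% and 26.3% of all genes, and INSIG2 was the 1 called higher. INSIG1, which retains SREBP in the endoplasmic reticulum, fell by 1.36 ± 0.13 under DHT and 1.21 ± 0.13 under vehicle, and SREBF1, which encodes SREBP-1, by 0.44 ± 0.09 under vehicle (edgeR adjusted p = 0.000940). Acyl-CoA synthetases were called in either direction about as often as all genes (51.8% under DHT and 50.2% under vehicle), with 4 of 12 lower and 1 higher under DHT and 4 lower and 3 higher under vehicle. Peroxisomal oxidation genes had 4 of 9 lower and 2 higher under DHT and 3 lower and 2 higher under vehicle, where 8 were called with the replicate number as a block. Of the 5 tested ceramide synthases, which use very-long-chain acyl-CoA, 0 were called by edgeR in any comparison, but 1 was called for PXN siRNA with upper-quartile scaling or the replicate block under either treatment, and 1 without replicate 2 of PXN siRNA with DHT or replicate 1 of non-specific siRNA with DHT (under DHT) or replicate 1 of non-specific siRNA with vehicle (under vehicle).

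In non-specific siRNA cells, 10 of the 60 tested genes of these 7 lists were called after DHT, 7 higher and 3 lower, or 16.7% against 4.87% of all genes. The count was 2 and 3 without replicate 2 or 3 of non-specific siRNA with DHT, 4 and 2 without replicate 1 or 3 of its vehicle group, and 18 with the replicate number as a block. The smallest p was that of ACSL3, a long-chain acyl-CoA synthetase, at 496 ± 101 CPM with DHT against 244 ± 13.7 CPM with vehicle (1.02 ± 0.12, edgeR adjusted p = 0.000217; SD, n = 3 each). SLC27A4, a fatty acid transport protein with synthetase activity, was higher too (0.25 ± 0.06, adjusted p = 0.0299). Of the 9 peroxisomal genes 2 were higher, the thiolase ACAA1 (0.28 ± 0.06, adjusted p = 0.00999) and HSD17B4 (0.26 ± 0.06, adjusted p = 0.0247), and 2 lower, the transporter ABCD3 (-0.26 ± 0.06, adjusted p = 0.0295) and EHHADH (-0.39 ± 0.10, adjusted p = 0.0358). HACD2 was the 1 partner enzyme called (0.30 ± 0.07, adjusted p = 0.0170). Of the synthesis genes 1 was higher (ACACA, 0.39 ± 0.10, adjusted p = 0.0426) and 1 lower (THRSP, -1.40 ± 0.30, adjusted p = 0.0141), and of the regulators SCAP was higher (0.41 ± 0.10, adjusted p = 0.0320). No desaturase or ceramide synthase was called by edgeR in the fit of all libraries. In PXN siRNA cells 0 genes of these 7 lists were called by edgeR after DHT, where 0.184% of all genes were, and the replicate block called 1 each of the synthesis genes, regulators and peroxisomal genes. The list medians for DHT lay between -0.06 and 0.16. Those of the tested ELOVL members were 1.25 and 0.45 with non-specific and PXN siRNA. The ELOVL medians include the scarce ELOVL2 and ELOVL4. They also include ELOVL7, whose rise the family was picked with, and are therefore given as a description.

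**Figure D5:**
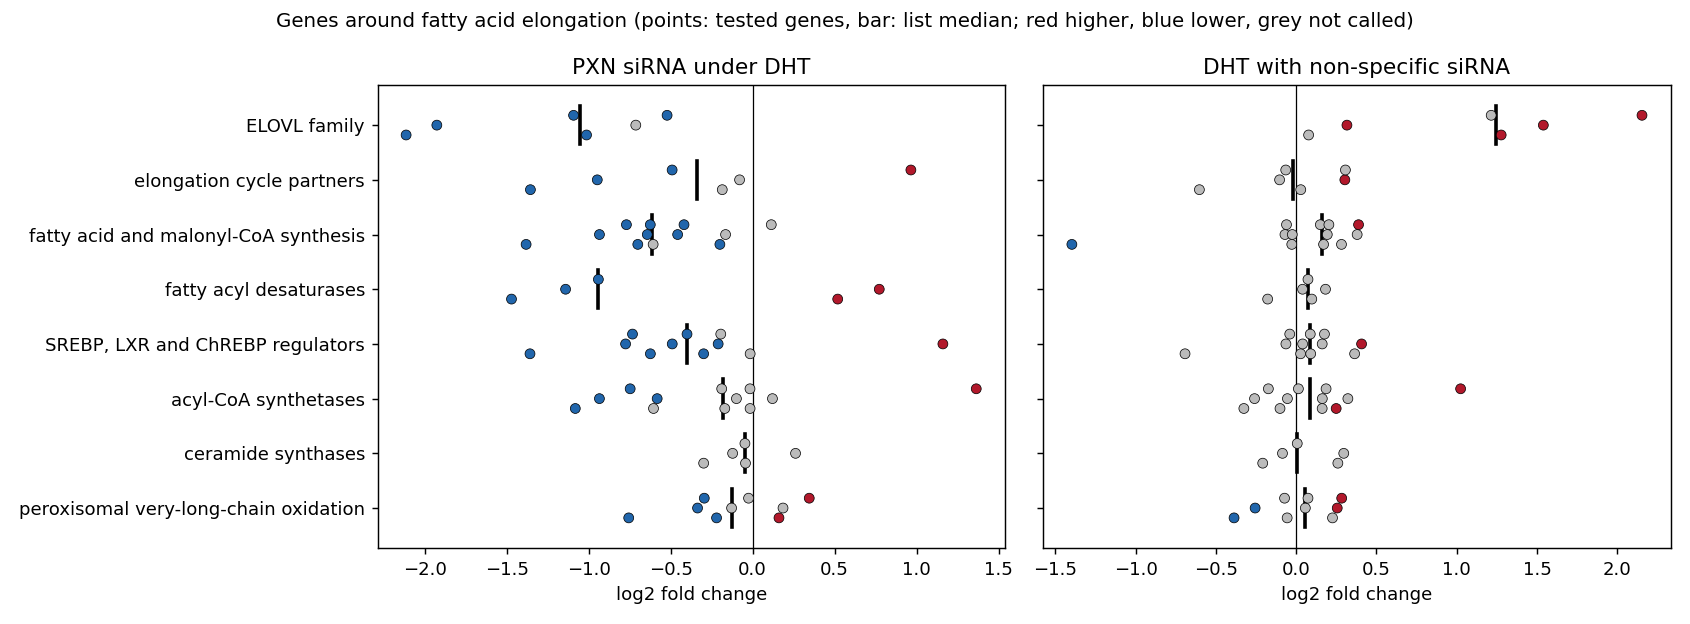
Each point is a tested gene of the ELOVL family or of 1 of 7 neighbouring lists, placed by its log2 fold change for PXN siRNA under DHT (left) and for DHT with non-specific siRNA (right), with a bar at each list's median and blue, red and grey for lower, higher and not called. With PXN siRNA the ELOVL, synthesis and desaturase medians lie left of 0 at -1.05, -0.62 and -0.94. Those of the regulators (-0.40), partners (-0.34), acyl-CoA synthetases (-0.18), peroxisomal genes (-0.13) and ceramide synthases (-0.05) lie left of 0 by less. With DHT only the ELOVL median, 1.25, lies far from 0. The ELOVL medians include ELOVL6 and ELOVL7, whose responses the family was picked with.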

How the data were processed

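Whole-number gene counts of 12 LNCaP libraries, 3 in each of 4 groups given by the labels, were analysed. The deposited counts were made by the authors with featureCounts, and the submitters' processing notes name Trimmomatic 0.32, STAR 2.4.2a, Subread 1.5.0p3 and the GRCh38 build. Per the labels' protocols, RNA was isolated with RNeasy Plus Mini kits and the library kit was TruSeq Stranded mRNA. The sources used here do not give the strand setting, the annotation or the treatment of multiply mapped reads, so reads of the antisense gene overlapping ELOVL2 cannot be told apart from its own. All columns were used (0 left out). No 2 replicates agreed within sampling noise (chi-square per gene 6.53 to 28.2 over 12 pairs).

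Tests used R 4.3.3 with edgeR 4.0.16: filterByExpr (18468 genes kept, 17669 left out; minimum count 10), TMM scaling and 1 quasi-likelihood fit of 4 group means to all 12 libraries (8 residual degrees of freedom), with Benjamini-Hochberg adjustment over all tested genes and calls at an adjusted p under 0.05. The SE is the log2 fold change divided by the square root of F. The fit was tested on simulated data in which only non-specific siRNA with DHT held changed genes, equally often up and down. Shifts as broad as those with PXN siRNA were not simulated. Ratios between members used a pseudocount of 0.5 counts and exact permutation tests in Python 3.11.15. CPM per kb used all exons of GENCODE 29, and motifs were searched in 27305 RefSeq promoters. Named are PXN, all ELOVL genes, up to 3 genes per list and comparison with the smallest p, other genes that a count of 5 or fewer refers to (chosen after their values were seen), and the 3 genes most like each member of at least 5 CPM. Some genes that this rule names and 1 motif searched are not reported here. The members and lists were chosen with earlier results of these data known.

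Alternatives were DESeq2 1.42.0 (size factors, Wald test), upper-quartile scaling, other filters, limma-voom (limma 3.58.1), the replicate block, a threshold of 0.01 on the adjusted p, fits of the compared groups alone, a pseudocount of 5 counts, the longest transcript, and leaving out each library. The labels share replicate numbers between groups without saying what they mark. Deviations of same-numbered libraries correlated over 0.1 in every pair for PXN siRNA under vehicle (0.121 to 0.210), DHT with non-specific siRNA (0.145 to 0.383) and DHT with PXN siRNA (0.100 to 0.307), but not for PXN siRNA under DHT (0.0769 to 0.284) or the interaction (-0.0256 to 0.383), so from the data the numbers were taken to pair the samples in the first 3. Libraries of unlike number were not correlated for comparison, and DHT with PXN siRNA only just passed the limit of 0.1 (0.1004). The main fit and the permutation tests did not use the pairing, which enters only in the fit with the replicate block. The shares of all genes called that stand beside the members come from the main, unpaired fit.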

Additional observations from a re-analysis of the deposited data

How the results depend on the processing

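Among the 606 alternative values of the members' log2 fold changes, 583 kept direction and side of the threshold, 16 lost a call, 1 gained one and 6 turned direction. Over the alternatives, the log2 fold change of ELOVL6 with PXN siRNA lay between -2.41 and -2.07 under vehicle and between -2.22 and -2.01 under DHT. That of ELOVL7 with DHT lay between 2.04 and 2.32 with non-specific siRNA and between 1.32 and 1.67 with PXN siRNA. These ranges are descriptions, since the family was picked with those 2 responses known. ELOVL7 kept its call for PXN siRNA under vehicle in all alternatives run. For DHT with PXN siRNA, 188 genes were called with no low-count filter, 145 by DESeq2's Wald test, 18 in a fit of only the groups compared and 11 at an adjusted p of 0.01, and the last 2 left 1 ELOVL gene called. At that threshold DHT with non-specific siRNA called 406. The interaction had 1 gene with DESeq2 size factors, 35 with no filter and 30 by the Wald test. A fit with a replicate block called 2236 genes for DHT with non-specific siRNA, 346 for DHT with PXN siRNA and 58 for the interaction, and the block changed no call on a member. Leaving out 1 library gave 416 to 1361 genes for DHT with non-specific siRNA, 10 to 80 for DHT with PXN siRNA (1 to 2 ELOVL genes) and 0 to 45 for the interaction, and 5 to 8 member pairs called for either response, ELOVL6 and ELOVL7 included. Over the same omissions, log2 fold changes that turned direction were those of ELOVL2 for PXN siRNA under vehicle (-0.81 to 0.035), ELOVL4 for DHT with PXN siRNA (-1.27 to 0.49) and the ELOVL6 interaction (-0.062 to 0.27). So did uncalled log2 ratios for PXN siRNA (ELOVL1 to ELOVL4 -0.50 to 0.38, ELOVL2 to ELOVL4 -0.91 to 0.16, ELOVL2 to ELOVL5 -0.17 to 0.19, ELOVL4 to ELOVL5 -0.053 to 0.94) and for DHT (ELOVL1 to ELOVL4 -0.62 to 0.25, ELOVL1 to ELOVL6 -0.026 to 0.11, ELOVL2 to ELOVL5 -0.0014 to 0.37, ELOVL4 to ELOVL6 -0.21 to 0.70). A pseudocount of 5 counts called 10 pairs for PXN siRNA, against 6, and 9 for DHT, against 7, and gave ELOVL2 to ELOVL5 0.11 for PXN siRNA and -0.042 for DHT. The mean filter of 1 CPM left ELOVL2 and ELOVL4 untested. Of 936 list counts 65 moved, and of 28 levels per kb 12 moved with the longest transcript. The causes of these shifts were not tested. Depth limits the statements on ELOVL2, ELOVL3 and ELOVL4.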
